A study of Homo sapiens with 6 samples.

Results

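Reelin, its receptors VLDLR and LRP8, and the adaptor DAB1 were examined in MDA-MB-231, a human line of triple-negative breast cancer. The members were the rows of the deposited table whose symbol was RELN, VLDLR, LRP8 or DAB1, which gave 4 of 60605 listed genes, each present once. Poly(A)-selected RNA was sequenced from 3 samples with a control hairpin (shControl) and 3 with a hairpin against PUS1 (shPUS1), a pseudouridine synthase that modifies uridines in RNA. All samples were grown in RPMI-1640 with serum, and by the study's methods all carried a lentiviral hairpin selected with puromycin. The labels call the libraries biological replicates and do not name the hairpin, while the column headings of the shPUS1 libraries number the knockdown as 2 without saying what the number stands for, and nothing says whether the samples of a group came from separate infections, so p-values measure only the spread between these libraries. The members were chosen with values of the shPUS1 against shControl comparison known. Their differences between groups are therefore given as a description, and the adjusted p printed beside them is only the place of each gene in the fit over the whole table.

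Reelin is a large secreted glycoprotein, best known for guiding the layering of neurons in the developing brain, where Cajal-Retzius cells release it. It binds the very low density lipoprotein receptor (VLDLR) and apolipoprotein E receptor 2 (encoded by LRP8) on the receiving cell. Binding leads SRC family kinases to phosphorylate DAB1, which is docked on the tails of both receptors, and signalling continues through CRK proteins, phosphatidylinositol 3-kinase and regulators of the cytoskeleton. Outside the brain reelin is made in several epithelial and liver cells, and loss of RELN expression through promoter methylation has been described in breast cancer.

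The library totals ranged from 14241505 to 19625998 estimated counts. The targeted gene PUS1 was measured at 14.5, 27.5 and 12.1 CPM (the usual scaling of counts to library size, here with TMM factors) in shControl replicates 1, 2 and 3, and at 6.57, 5.47 and 5.37 CPM in shPUS1, so every shPUS1 library lay below every shControl library. The log2 fold change of PUS1 was -1.62 (adjusted p = 0.0483 in edgeR). The shControl replicate 2 stood apart. Across genes, Pearson's r of its log2 CPM with the other shControl libraries was 0.9505 and 0.9521, against 0.981 between these 2 and at least 0.9872 within shPUS1. The markers of the line were present, with VIM at 447 FPKM (the deposited CPM per kilobase of exonic length) in shControl and 311 in shPUS1, and the hormone receptor genes ESR1 and PGR had group means of at most 0.04 FPKM. ERBB2, listed with them as low in this line, was not near 0, at 6.26 FPKM in shControl and 5.07 FPKM in shPUS1. Summed leukocyte markers stood at 1.17 to 2.96 FPKM in shControl and 2.0 to 2.91 FPKM in shPUS1, with CD3E at 0, and endothelial markers at 0.22 to 1.02 and 0.58 to 0.74 FPKM.

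RELN itself, the gene of the ligand, was nearly silent in the control cells and had 335 to 574 estimated counts in the knockdown libraries. RELN (ENSG00000189056) lies on the minus strand of chromosome 7, from 103471381 to 103989658 in the coordinates of the deposited table. The estimated counts were 25, 15 and 47 in shControl replicates 1, 2 and 3, and 402, 574 and 335 in shPUS1 replicates 1, 2 and 3. Scaled to depth, this was 1.64, 0.786 and 3.20 CPM in shControl and 22.4, 31.4 and 19.8 CPM in shPUS1. Every shPUS1 library thus lay above every shControl library. The mean was 1.87 ± 1.23 CPM (SD, n = 3) in shControl and 24.5 ± 6.11 CPM (SD, n = 3) in shPUS1. The log2 fold change in edgeR's quasi-likelihood fit was 3.65 (standard error 0.45), a 12.6-fold higher level with a 95% interval of 6.14 to 25.8. Among 14748 genes tested it ranked 9 from the highest, with an adjusted p of 0.0225.

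**Figure D1:**
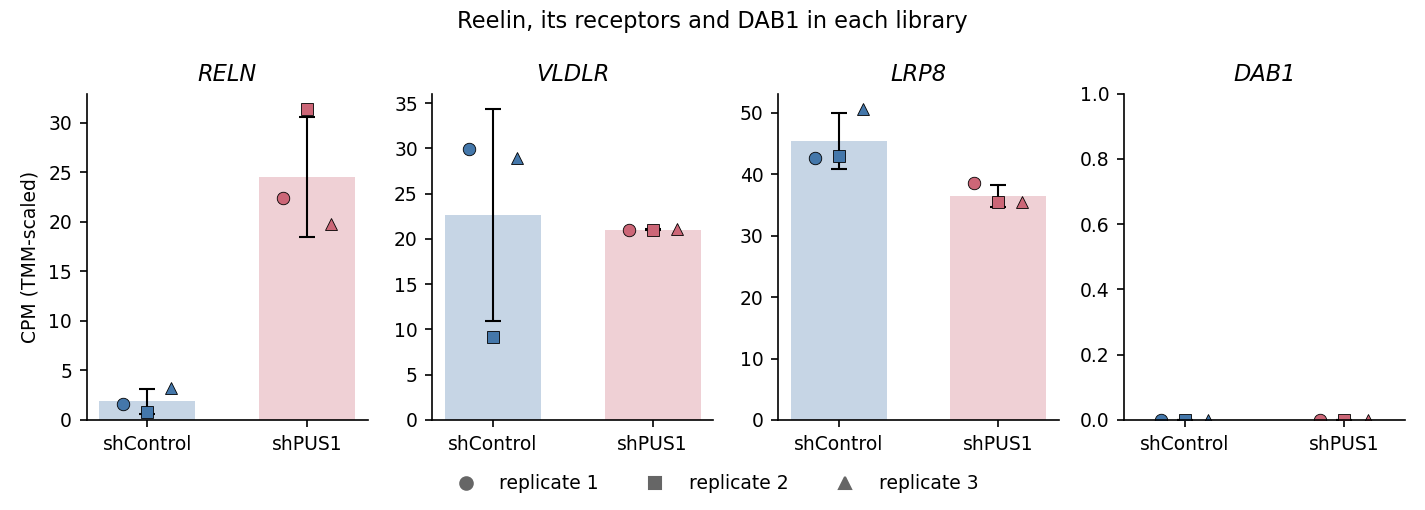
The panels show TMM-scaled CPM of RELN, VLDLR, LRP8 and DAB1, with bars for the group mean, error bars for the SD (n = 3) and a symbol for each replicate. RELN lay between 0.786 and 3.20 CPM in shControl and between 19.8 and 31.4 CPM in shPUS1, the 3 shPUS1 points of VLDLR coincided between 2 widely spaced sets of shControl points, and DAB1 stood at 0 throughout.

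The shControl libraries differed among themselves in RELN by more than counting error. The exact 95% Poisson interval was 0.44 to 1.30 CPM in shControl replicate 2 and 2.35 to 4.26 CPM in replicate 3, which did not overlap. Such intervals, and the floors given for a count of 0, hold counting error only. The coefficient of variation was 65.4% in shControl and 24.9% in shPUS1. Leaving out shControl replicate 2, the library that stood apart and the lowest in RELN, the log2 fold change was 3.28 with an adjusted p of 0.000662. The call was lost without shControl replicate 1 (log2 fold change 3.59, adjusted p = 0.0894 in edgeR) and without shPUS1 replicate 1 (3.70, 0.135), replicate 2 (3.43, 0.177) or replicate 3 (3.78, 0.124). The direction was the same in all 14 other settings tried, with adjusted p from 8.23e-17 in DESeq2 to 0.177. In bulk RNA, a larger share of cells that express RELN and more RELN RNA per cell cannot be told apart.

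Genes that overlap RELN were near 0. The table lists 2 such genes, 1 of them on the opposite strand, and neither had more than 1 count in a library. None of the stretches of 100 bases in the RELN transcripts of GENCODE release 29 occurs in a transcript of another gene. The nearest tested protein-coding genes on either side were described as well, chosen after the values were seen. PSMC2 and DNAJC2, at 101 and 127 kb, had log2 fold changes of -0.28 and -0.15, and ORC5 and KMT2E, at 137 and 1020 kb, had -1.06 and 0.50. None of the 4 passed an adjusted p of 0.05 (0.424, 0.769, 0.137 and 0.185), and KMT2E and ORC5 lay on opposite sides of 0.

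The RELN promoter is shown because this gene had the largest difference among the members and because the element is known to be rich in CpG. The 250 bases before the RefSeq start of RELN, on the minus strand at chr7:103989659-103989908 of GRCh38.p14, adjoin the end of the gene in the deposited table and are printed 5′ to 3′, with capitals for the GC box GGGCGG and the E box CACGTG, searched on both strands with overlapping matches counted.
RELN promoter: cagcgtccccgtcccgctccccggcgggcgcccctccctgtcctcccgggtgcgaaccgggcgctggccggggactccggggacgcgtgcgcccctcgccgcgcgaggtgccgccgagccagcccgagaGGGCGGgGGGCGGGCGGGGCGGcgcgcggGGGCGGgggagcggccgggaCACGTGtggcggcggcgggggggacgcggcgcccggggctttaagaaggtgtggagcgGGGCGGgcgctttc
This window holds 43 CG dinucleotides, more than 99.0% of the 35116 promoter windows of this length in RefSeq, whose median is 11. It holds 6 GC boxes and 1 E box. A GC box is present in 42.6% of all windows, an E box in 6.34% and both in 3.54%. The windows of VLDLR and LRP8 hold 41 and 31 CG dinucleotides, with 2 and 3 GC boxes and 0 E boxes, so all 3 are above the median of 11. The 6 windows listed for DAB1, which was not detected, hold 12 to 41 CG dinucleotides, also above the median, with an E box in 1 of them. Methylation and factor binding were not measured, and a match to these letters is no evidence of a bound site.

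VLDLR, the receptor with the highest variation between controls, gave no difference that could be separated from the spread. It lies on the plus strand of chromosome 9, from 2621182 to 2660056 (ENSG00000147852). The values were 29.9, 9.12 and 28.9 CPM in shControl replicates 1, 2 and 3 and 21.0, 21.0 and 21.1 CPM in shPUS1. The shPUS1 values lay between the low shControl replicate 2 and the other shControl libraries, so the groups overlapped. The means were 22.6 ± 11.7 CPM in shControl and 21.1 ± 0.0627 CPM in shPUS1 (SD, n = 3 each). The log2 fold change was -0.10 ± 0.39 (standard error), with a 95% interval of -1.0 to 0.80 and an adjusted p of 0.89 in edgeR, an interval that runs from 0.499 to 1.74 times the shControl level.

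The VLDLR result rested on shControl replicate 2. Without that library the log2 fold change was -0.49 with an adjusted p of 0.0114, and without shControl replicate 1 or 3 it was 0.15 and 0.10. The spread of VLDLR between the shPUS1 libraries, a coefficient of variation of 0.298%, was smaller than counting error alone, since the 95% Poisson interval of shPUS1 replicate 1 ran from 19.0 to 23.3 CPM. Neither of the 2 antisense genes that overlap VLDLR had more than 3 counts in a library.

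LRP8, the gene of the other receptor, was the most abundant member per length in every library. It lies on the minus strand of chromosome 1, from 53242364 to 53328469 (ENSG00000157193). It was measured at 42.6, 43.0 and 50.6 CPM in shControl and 38.5, 35.5 and 35.4 CPM in shPUS1. All shPUS1 values were below all shControl values, by a small margin, and shControl replicate 2 was not apart from the others here. The log2 fold change was -0.32 (standard error 0.13, 95% interval -0.62 to -0.01), with an adjusted p of 0.188, which did not pass. Without shControl replicate 2 it was -0.36 with an adjusted p of 0.0475. The fold stayed below the minimum of the call.

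DAB1, the adaptor that carries the signal inside the cell, had 0 counts in all 6 libraries. It lies on the minus strand of chromosome 1, from 56994778 to 58546734 (ENSG00000173406). A count of 0 was given a floor of 3 counts over the library total, without TMM factors. That floor is 0.153 to 0.211 CPM in a library, or 0.0202 to 0.0279 FPKM over the exonic length of DAB1. No fold can be given. Of the 11 genes that overlap DAB1, 10 had under 10 counts in every library, and the other was OMA1, a mitochondrial protease gene, with up to 282 counts.

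Across the members, the call (adjusted p under 0.05 together with a log2 fold change of 1 or more in either direction) held for RELN alone, 1 of the 3 members that passed the filter on low counts and 1 of 4 in all. The background was 1.32% of all genes tested called in either direction and 0.861% called higher in shPUS1. The groups did not overlap in RELN and LRP8, as in 36.1% of all genes tested (18.8% higher and 17.3% lower in shPUS1). Since the members were picked with this contrast in view, nothing is read from these shares. Without shControl replicate 2, VLDLR and LRP8 were both lower at an adjusted p under 0.05, with no minimum fold, as were 9.32% of the genes tested in that fit.

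**Figure D2:**
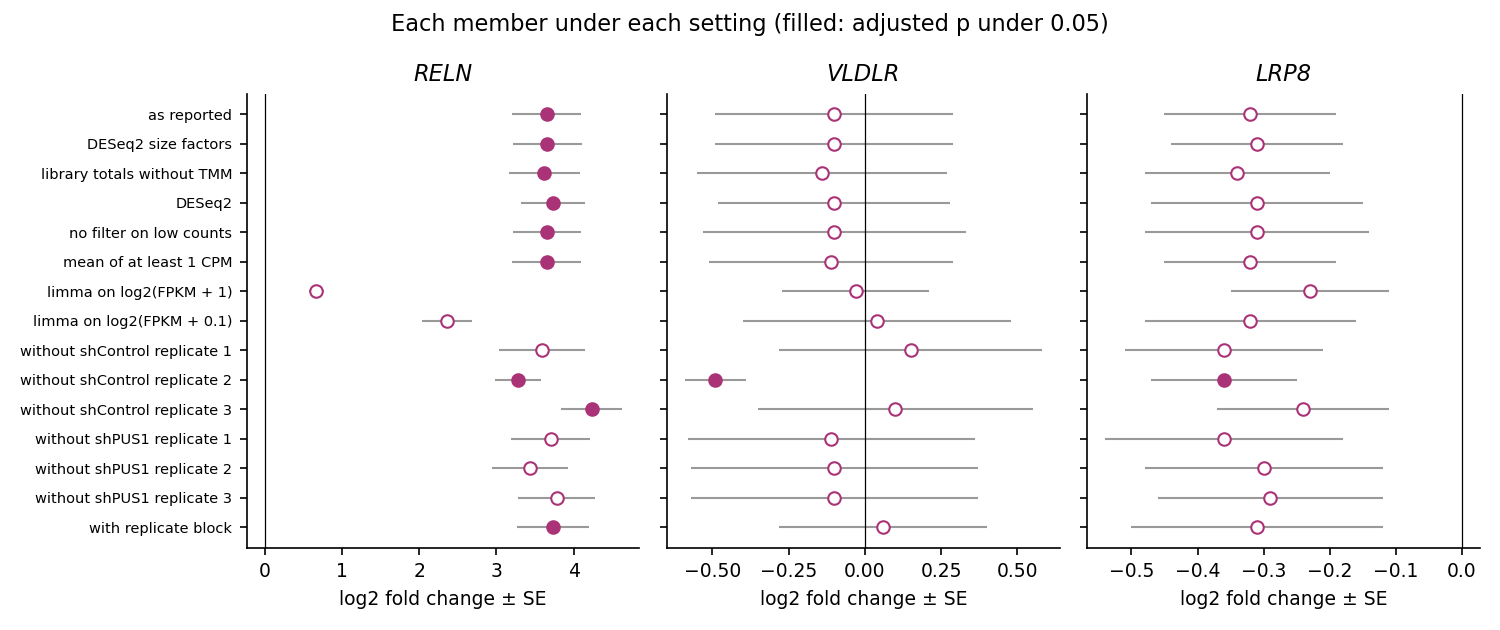
Log2 fold changes of RELN, VLDLR and LRP8 (shPUS1 relative to shControl, horizontal axis, with standard errors) are drawn for the reported fit and 14 other settings, filled where the adjusted p was under 0.05. RELN stayed above 0 throughout, from 0.67 to 4.23, LRP8 stayed between -0.36 and -0.23, and VLDLR lay on both sides of 0, from -0.49 to 0.15.

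Levels of different genes were compared per length. In deposited FPKM, LRP8 stood at 2.20, 2.12 and 2.65 in shControl and 1.93, 1.80 and 1.78 in shPUS1. VLDLR followed at 1.85, 0.54 and 1.80 FPKM in shControl and 1.26, 1.27 and 1.27 FPKM in shPUS1. RELN came last of the expressed members, at 0.05, 0.02 and 0.09 FPKM in shControl and 0.62, 0.88 and 0.55 FPKM in shPUS1. The order LRP8, VLDLR, RELN, DAB1 held in all 6 libraries on this scale. The gap between VLDLR and RELN narrowed from a ratio of 20 to 37 in shControl to a ratio of 1.44 to 2.31 in shPUS1. The shControl ratios are coarse, since they divide by rounded RELN values of 0.02 to 0.09 FPKM. In FPKM, RELN was above at most 1.2% of the genes tested in any shControl library and above 15.4% to 20.8% in shPUS1.

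The length used for FPKM matters for this family. The table divides RELN counts by 35421 exonic bases, whereas the transcript with the longest coding sequence in GENCODE release 29, RELN-203, has 11571 bases, a ratio of 3.06. The ratio was 1.80 for VLDLR (VLDLR-203) and 2.57 for LRP8. DAB1 had the largest ratio, 4.19 (DAB1-203), so its floor would be higher per kilobase of that transcript. CPM per kilobase of these transcripts, a scale added after the data had been seen, put RELN at 1.91, 2.71 and 1.69 in the shPUS1 libraries. VLDLR was at 2.26, 2.29 and 2.28 on the same scale, so RELN passed VLDLR in shPUS1 replicate 2 and stayed below it in the other 2. The order of RELN and VLDLR in shPUS1 could thus not be separated from the spread on that scale, while LRP8 remained highest with 4.58 to 4.96.

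**Figure D3:**
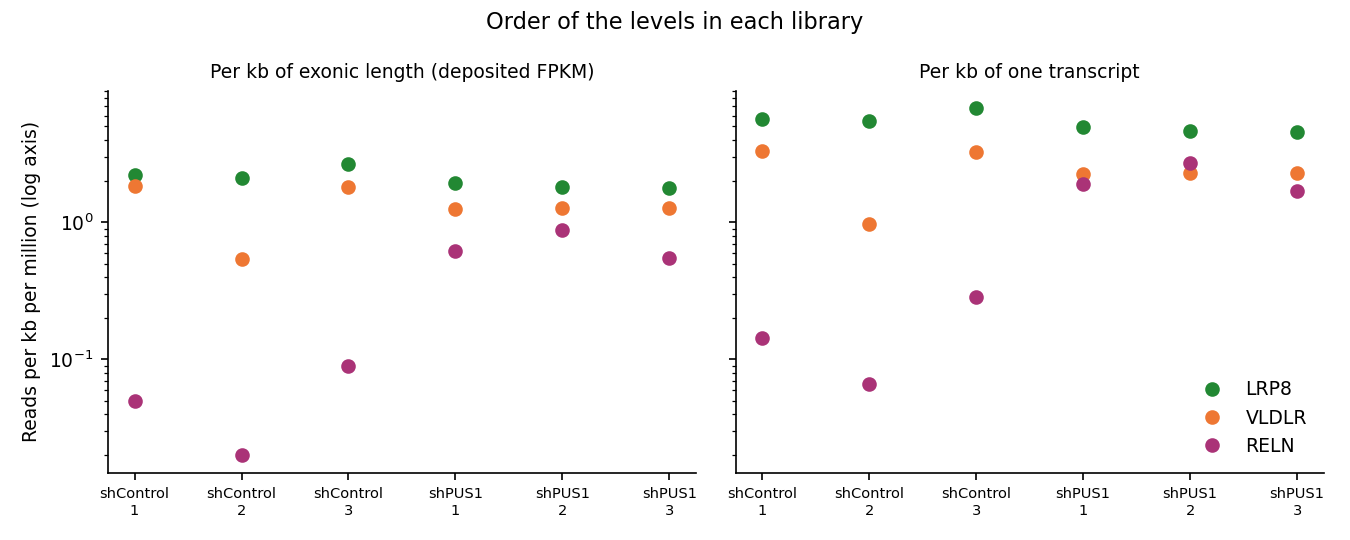
Each point is the level of LRP8, VLDLR or RELN in a library on a log axis, per kilobase of the exonic length in the table (left) or of the transcript with the longest coding sequence (right). RELN lay far below both receptors in the 3 shControl libraries and close to VLDLR in the 3 shPUS1 libraries. Neither scale uses TMM factors. DAB1, at 0, cannot be drawn on this axis.

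The rest of the pathway was counted over 78 genes in 6 lists written from general knowledge, of which 66 passed the filter on low counts. None of the 66 passed the call in edgeR, beside 1.32% of all genes tested, and 0 of 76 passed it in DESeq2, beside 1.85%. At an unadjusted p under 0.05 there were 23 of 66 in edgeR, beside 25.3% of all genes tested, and 23 of 76 in DESeq2, beside 14.5%. The DESeq2 shares are over 27010 genes with any count, including low ones that the edgeR filter removed, whereas 66 of the 76 list genes passed that filter. The list and its DESeq2 background are therefore unlike in level, and nothing is read from that gap. At an adjusted p under 0.05 with no minimum fold there were 2 genes, both higher in shPUS1, beside 1.63% of all genes tested. Without shControl replicate 2, 18 genes were higher and 3 lower at that level, where 10.1% and 9.32% of the genes tested in that fit were. In that fit 1 gene passed the full call, EFNB3, with a log2 fold change of -1.15 (adjusted p = 0.0404 in edgeR), beside 1.59% of the genes tested called lower.

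Among other ligands of VLDLR and LRP8, no tested gene was called. Of 5 listed genes 4 were tested, with a median log2 fold change of 0.07, and SELENOP, with at most 8 counts in a library, was not. THBS1, encoding the matrix protein thrombospondin 1, was the most abundant at 88.2 ± 5.87 FPKM in shControl and 68.9 ± 5.34 FPKM in shPUS1 (SD, n = 3 each), with -0.33 on the log2 fold scale (adjusted p = 0.139 in edgeR). CLU, the gene of the secreted chaperone clusterin, had 0.51 (adjusted p = 0.162). APOE had -0.32 (adjusted p = 0.771 in edgeR). Without shControl replicate 2 the APOE value was -0.82 (adjusted p = 0.0274 in edgeR), where 9.32% of the genes tested were lower at an adjusted p under 0.05.

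Among proteases that cleave reelin, FURIN was higher in shPUS1. FURIN encodes a proprotein convertase of the secretory pathway, and was at 93.9, 97.2 and 119 CPM in shControl and 194, 205 and 177 CPM in shPUS1, with no overlap. The log2 fold change was 0.89 ± 0.14 (standard error), with an adjusted p of 0.0333 in edgeR, below the minimum fold of the call. Over the other settings its adjusted p ran from 6.25e-06 to 0.233, and among the fits with a library left out it was above 0.05 without shControl replicate 1 or any 1 of the shPUS1 libraries. PLAT, the gene of tissue plasminogen activator, was at 180, 76.1 and 175 CPM in shControl and 255, 254 and 241 CPM in shPUS1. Its log2 fold change of 0.80 had an adjusted p of 0.151, and shControl replicate 2 was again the low library. Without that library the PLAT value was 0.49 (adjusted p = 0.00662 in edgeR), and DESeq2 with all libraries gave 0.81 (adjusted p = 0.0494). Of the ADAMTS proteases that inactivate reelin, ADAMTS3 alone was tested, at 0.43 ± 0.0781 FPKM in shControl and 0.367 ± 0.124 FPKM in shPUS1 (SD, n = 3 each). Of 11 genes in this list 7 were too low to be tested.

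The wider LDL receptor family gave 0 calls among 9 tested genes of 12, with a median log2 fold change of 0.13 beside -0.03 over all genes tested. LRP12 had 0.54 (adjusted p = 0.0588 in edgeR) and LRP6, a coreceptor of WNT signalling, had 0.43 (adjusted p = 0.181). The members of this family thus lay on both sides of 0, from -0.39 to 0.54. The adjusted p of LRP12 ran from 0.00548 in DESeq2 to 0.29 over the other settings, and that of LRP6 from 0.107 to 0.51.

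Proteins that fold, sort or dock the receptors were all expressed, and all 9 listed genes were tested. They had a median of 0.29 on the log2 fold scale, and 5 genes were higher and 2 lower without overlap between groups, beside 18.8% and 17.3% of all genes tested. DAB2, an adaptor that binds receptor tails for endocytosis, was at 0.77 on that scale (adjusted p = 0.0918 in edgeR). Its adjusted p ran from 0.0106 to 0.304 over the other settings. DAB2 is related to DAB1 and was present at 11.0 ± 3.6 FPKM in shControl and 18.3 ± 0.724 FPKM in shPUS1 (SD, n = 3 each), whereas DAB1 was at 0. RNF11 was the most abundant of the list and had 0.25 (adjusted p = 0.273).

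The kinases that phosphorylate DAB1 and the proposed coreceptors ranged widely in level, from 0.477 FPKM for EFNB3 to 106 FPKM for ITGB1 in shControl. None of the 9 genes, all tested, was called, and their median was 0.05 on the log2 fold scale. FYN had 0.47 (adjusted p = 0.0946 in edgeR), and its adjusted p ran from 0.0365 to 0.309 over the other settings. ITGB1, the integrin beta 1 gene, was at 106 ± 8.92 FPKM in shControl and 87.1 ± 4.09 FPKM in shPUS1 (SD, n = 3 each), with -0.26 on the log2 fold scale (adjusted p = 0.203 in edgeR).

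Effectors downstream of DAB1 and the enzymes of its turnover made up the longest list, with 31 of 32 genes tested. Their median was 0.16 on the log2 fold scale, and 13 genes were higher and 2 lower without overlap, where 18.8% and 17.3% of all genes tested were. RAPGEF1, the exchange factor that activates RAP1 after CRK is recruited, had an adjusted p of 0.0441 in edgeR and a log2 fold change of 0.71 ± 0.13 (standard error), with 16.7 ± 2.10 FPKM in shControl and 26.9 ± 2.29 FPKM in shPUS1 (SD, n = 3 each). PIK3CB, a catalytic subunit of phosphatidylinositol 3-kinase, had 0.47 (adjusted p = 0.0657). Its adjusted p ran from 0.0128 to 0.307 over the other settings. CFL1, the actin-severing protein cofilin, was the most abundant and had -0.14 (adjusted p = 0.656). Over the other settings the adjusted p of RAPGEF1 ran from 0.000513 to 0.258, and among the fits with a library left out it too was above 0.05 without shControl replicate 1 or any 1 of the shPUS1 libraries. DCX, a neuronal microtubule gene, was the only gene of this list not tested.

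**Figure D4:**
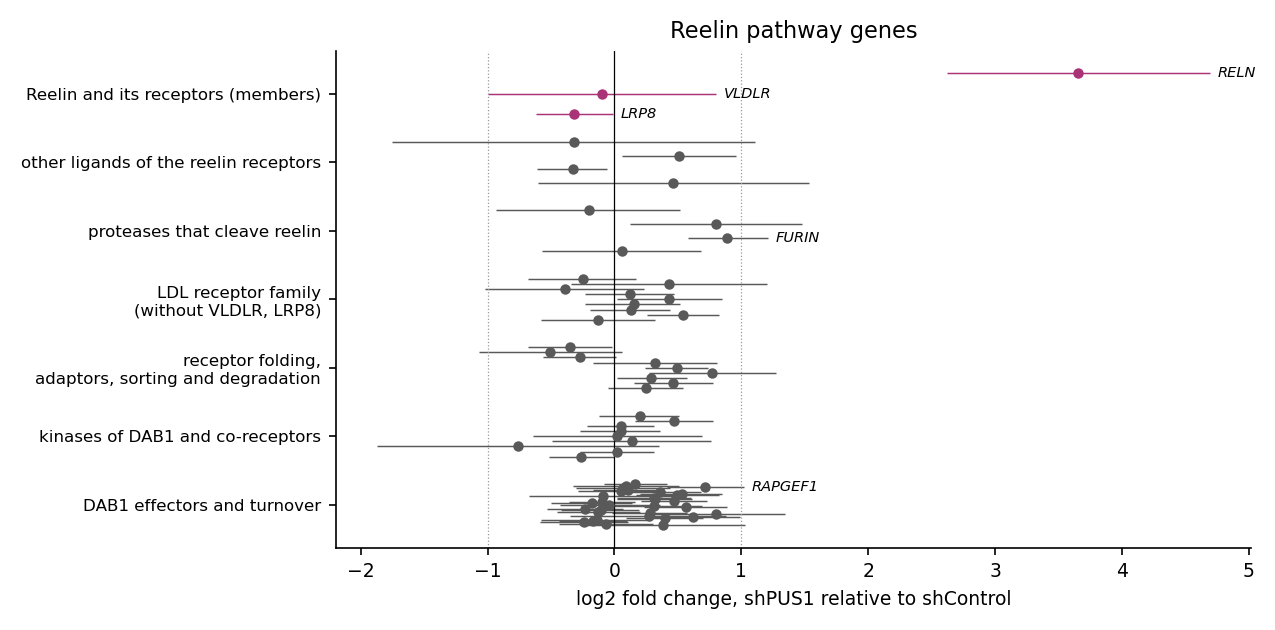
Points are log2 fold changes (shPUS1 relative to shControl) of the tested genes in each list, with 95% intervals, and dotted lines mark the minimum fold of the call. RELN, at 3.65, stands outside the range of -0.76 to 0.89 covered by the 66 other genes, and FURIN and RAPGEF1 are named as the genes with an adjusted p under 0.05.

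Markers of the cells that make reelin in the brain were set beside RELN. Of 5 Cajal-Retzius markers, TP73, LHX1, LHX5 and EMX2 were too low to be tested, with LHX5 at 0. The exception was CALB2, which encodes calretinin, with 41.6 ± 4.58 FPKM in shControl and 70.6 ± 9.23 FPKM in shPUS1 (SD, n = 3 each) and a log2 fold change of 0.79 (adjusted p = 0.0429 in edgeR). That fold was below the minimum of the call, and 1.63% of all genes tested were higher at an adjusted p under 0.05. The summed level of the list was 37.1 to 46.3 FPKM in shControl and 63.7 to 81.1 FPKM in shPUS1, nearly all of it CALB2. TP73, with at most 20 counts in a library, went the other way. It was at 0.127 ± 0.0493 FPKM in shControl and 0.0433 ± 0.0208 FPKM in shPUS1 (SD, n = 3 each). Of 5 neuronal markers, 3 were tested and none had an adjusted p under 0.05 with all 6 libraries, and their sum was 18.1 to 23.3 FPKM in shControl and 11.9 to 13.2 FPKM in shPUS1. Most of that sum was TUBB3, a tubulin gene, with 16.4 FPKM in shControl and 9.13 FPKM in shPUS1. Without shControl replicate 2, TUBB3 was at -0.57 (adjusted p = 0.00463 in edgeR) and the synaptic gene SNAP25 at -0.91 (adjusted p = 0.0323), both lower in shPUS1. GAD1, also tested, was at -0.09 in that fit (adjusted p = 0.653 in edgeR) and at 0.21 with all 6 libraries. Beside these, 9.32% of the genes tested without shControl replicate 2 were lower at an adjusted p under 0.05. The part of these genes in the RELN result was not tested.

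The genes with profiles most like each member were found as the smallest root mean square difference of centred log2 CPM over the 6 libraries, among 12479 protein-coding genes. For RELN they were TRIM54, RARB and SLC5A3, with differences of 0.43, 0.45 and 0.47, where the median gene differed by 2.0. RARB encodes a retinoic acid receptor and SLC5A3 a myo-inositol transporter, and their log2 fold changes were 3.10 and 3.14. SLC5A3 overlaps MRPS6 on the same strand, which also had a higher level (log2 fold change 2.15), so reads of these 2 genes may be shared. All 3 had their lowest level in shControl replicate 2, as RELN did, and TRIM54 was at 0 CPM in that library.

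For VLDLR the most similar genes were LEPR, MXI1 and KCNAB2, with differences of 0.04, 0.06 and 0.06 beside a median of 0.63. LEPR encodes the leptin receptor and MXI1 a MYC antagonist. Each of them had its low point in shControl replicate 2, and their log2 fold changes were -0.11, -0.13 and 0.01. For LRP8 they were GIT2, IL17RE and SGSM2, with differences of 0.02, 0.04 and 0.05 beside a median of 0.32. All these profiles come from the same 6 libraries, and the likeness is a description over 6 values per gene.

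**Figure D5:**
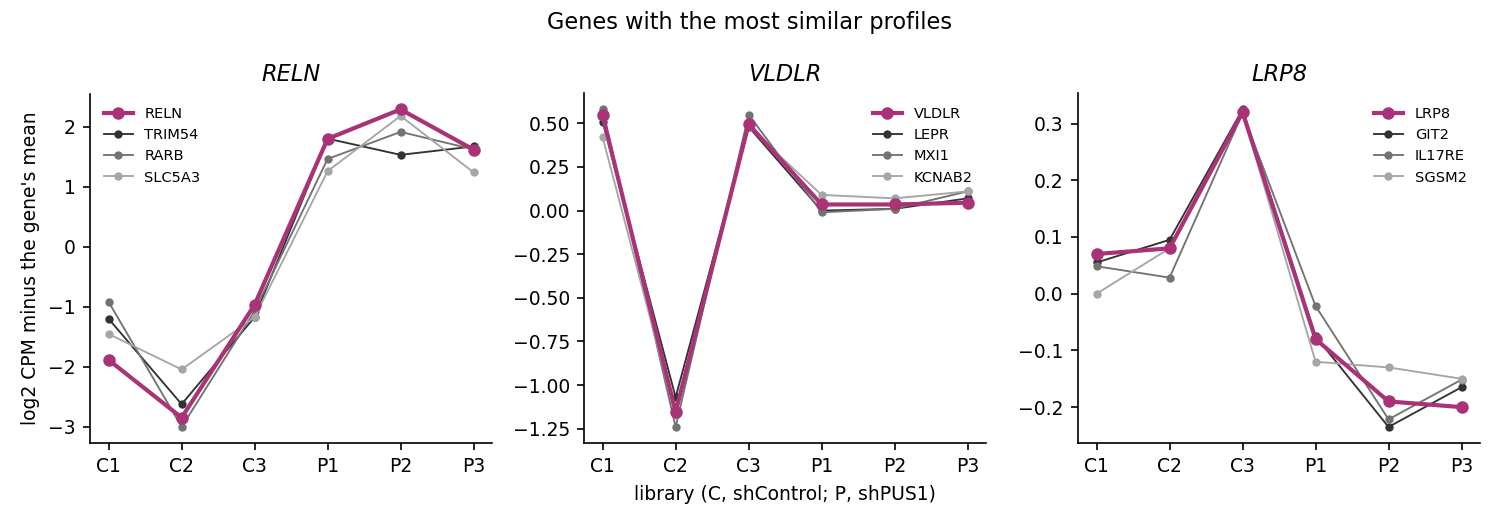
Lines give log2 CPM minus each gene's own mean in the 6 libraries for RELN, VLDLR and LRP8 (thick) and the 3 genes most like each (thin), and the lines only join points of a gene, since replicates have no order. RELN and its like genes separate shControl from shPUS1, VLDLR and its like genes drop in shControl replicate 2, and LRP8 and its like genes peak in shControl replicate 3.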

How the data were processed

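RNA-seq libraries of 3 shControl and 3 shPUS1 samples were analysed. Per the labels and the study's methods, the authors aligned reads with HISAT2 and counted them with HTSeq 0.6.1. The genome build, annotation release, strandedness and handling of multi-mapped reads are not given in the sources used here. The authors' table, which also holds gene annotation that was not used beyond names, types and positions, has 60605 genes. The authors deposited estimated counts per gene without normalization (29.8% to 31.8% of values above 0 are not whole) and FPKM made from them per exonic length and library total. The study's methods do not say how the counting step gave values that are not whole. No library was pooled. Samples were grouped by their titles.

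Counts were rounded, filtered with filterByExpr, scaled by TMM (factors 0.973 to 1.03) and tested across all genes with the robust quasi-likelihood test of edgeR 4.0.16 (R 4.3.3, prior count 2, Benjamini-Hochberg adjustment). Genes were called at an adjusted p under 0.05 with a log2 fold change of 1 or more in either direction. The test was tested on simulated data. DESeq2 1.42.0 and limma 3.58.1 (log2(FPKM + 1) and log2(FPKM + 0.1), mean FPKM of at least 1, with RELN taken from the fit without that filter) served as alternatives, with other scalings and filters, a replicate block and each library left out. Promoter windows are RefSeq's and transcripts GENCODE's release 29. Members, lists and rules were chosen with earlier results of these data known. The rule named the members, PUS1, the genes of each list that passed the call or otherwise those with the smallest adjusted p and the highest FPKM, and the 3 genes most like each member. EFNB3, ADAMTS3, APOE, SELENOP, MRPS6, the neighbours of RELN and the cell markers named with values were chosen after the values were seen. Some genes that this rule or the marker lists named are not reported here, and they stay in the counts of their lists.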

Additional observations from a re-analysis of the deposited data

How the results depend on the processing

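All 6 libraries together called 195 genes. Leaving out each library in turn gave 0 to 478 genes in edgeR. It was 478 without shControl replicate 2, of which 161 were among the 195, 11 without shControl replicate 1, 177 without shControl replicate 3, of which 108 were among the 195, and 11, 5 and 0 without shPUS1 replicates 1, 2 and 3, where 2539 genes still had an unadjusted p under 0.05 in the last case. With all 6 libraries the counts were 499 with DESeq2, 336 without a filter on low counts, 82 and 108 with limma on log2(FPKM + 1) and log2(FPKM + 0.1), and 352 with no minimum fold. In the pathway lists the count of 0 became 2 with no minimum fold, and 0 to 1 with a library left out. RELN was at 0.67 (adjusted p = 0.113) and 2.36 (adjusted p = 0.0696) on the log2 fold scale with limma at pseudocounts of 1 and 0.1, which compress low values, and 3.28 to 4.23 with a library left out. PUS1 had -1.0 and -1.48 with limma (adjusted p = 0.0564 and 0.0537), and -1.84 to -1.19 with a library left out, where its call was lost without shControl replicate 1 or any 1 of the shPUS1 libraries. VLDLR changed sign with limma at a pseudocount of 0.1 (0.04), and ran from -0.49 to 0.15 with a library left out. The LRP8 value stayed negative, from -0.36 to -0.23. CFL1 changed sign to 0.08 without shControl replicate 2, within -0.29 to 0.08 over the libraries left out. The cause of these changes was not tested.

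Same-numbered libraries had residual correlations of -0.05, -0.03 and -0.19, and 0 of 6 libraries correlated best with their own number. Pairing by number was thus not seen, and with so few libraries in a group these values cannot decide whether samples were paired. With the replicate block 21 genes were called, RELN kept the call at 3.73 (adjusted p = 0.0394), PUS1 had -1.53 (adjusted p = 0.0834), LRP8 -0.31 and VLDLR 0.06. FURIN and RAPGEF1 were no longer under an adjusted p of 0.05 with the block (0.0852 and 0.125), and RAPGEF1 neither with library totals (0.0513) nor with limma on log2(FPKM + 0.1) (0.0522).

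TMM-scaled counts per kilobase of exonic length gave VLDLR 1.28 in shPUS1. Per kilobase of one transcript, without TMM factors, the mean levels in shControl and shPUS1 were 0.165 and 2.10 for RELN, 2.51 and 2.28 for VLDLR, and 5.98 and 4.72 for LRP8. Beside FPKM, this is the change in length. In shControl, RELN rests on 15 to 47 counts a library, which limits its precision.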
